A study of Mus musculus with 8 samples.

Results

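The extracellular matrix of white fat was followed through 40 genes: collagens, enzymes that fold and crosslink them, matricellular proteins, proteoglycans, elastic fibre proteins and 2 fibrosis genes (Tgfb1 and Acta2). The genes were taken from a list of names, and a gene was used if a probe set of the array carried its name and no other. Of the 40 genes, 38 were tested, among 11224 genes tested on the array in all. Loxl2 (its probe sets carry a pair of names in the annotation used) and Fbn1 are not analysed here. RNA of epididymal fat, the visceral pad beside the testis, came from 8 male C57BL/6J mice, 2 in each of 4 groups, with 1 array per mouse. Mice of the HFD+Tel group ate a high-fat diet and drank telmisartan, those of the HFD+Can group ate the same diet and drank candesartan, and those of the HFD group had the diet and no drug. The chow mice ate a control diet and had no drug. Fat gave 30% of calories in the high-fat diet, against 10% in chow. Mice were bought at the age of 6 weeks, the diets ran for 24 weeks, and the drugs were then given for 5 weeks, each at about 3 mg/kg/day. Both drugs block the type of angiotensin receptor that raises blood pressure. Both are biphenyl benzimidazoles; among other differences, telmisartan carries a carboxylic acid on the biphenyl and candesartan a tetrazole.

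Collagens are built from chains that wind into a triple helix. Fibrillar collagens give fat its tensile frame, while the network of type IV collagen forms the basement membrane that wraps each adipocyte and vessel. Lysyl oxidases link the chains to each other outside the cell, small proteoglycans set how thick the fibrils grow, and matricellular proteins tie the matrix to cells and to the growth factor TGF-beta. In obesity the matrix around fat cells is known to thicken, and fibroblast-lineage cells are its main known source. Array signals were scaled to a common level and compared on the log2 scale, where 1 unit is a doubling, and a gene was called when its adjusted p in limma was under 0.05.

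Over the 38 genes, the log2 values of the 2 mice in a group differed with an SD of 0.393 in HFD+Tel, 0.234 in HFD+Can, 0.219 in HFD and 0.537 in chow. The chow value includes Thbs1, which differed 5.78-fold between the chow mice (signals of 117 and 675), where the next largest fold was 1.76 (Postn). Over all genes tested the SDs were 0.484, 0.314, 0.272 and 0.445 in the same order of groups, highest in HFD+Tel. All 38 genes had signals above the floor on every array. Of 10 macrophage markers, Cd68, Itgax and 6 more were called higher in HFD than in chow and Cd163 lower, and 4 of 7 endothelial markers were called lower (2 after median centring of the arrays). Of all genes tested, 5.15% were called higher and 2.95% lower in that comparison. Markers of epididymis and testis were listed on the array for 6 of 7 genes, none of which was bright enough to be tested (highest mean signal 20.5, against a minimum of 40.6).

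Promoter windows from 250 bases before to 50 bases after the start site were listed by RefSeq (GRCm38.p6) for 28 of the 40 genes. Windows are shown for the genes called in HFD against chow that have one (Col16a1 and Thbs2, higher, and Col5a3, lower). They are also shown for Col4a1 and Col4a2, which are transcribed away from each other from a shared region. Capitals mark the letters CCAAT, the box known from type I collagen promoters, and CAGAC, the core letters that SMAD proteins bind, on either strand (ATTGG and GTCTG on the opposite one). The windows lie at chr4:130047590-130047889 (plus strand, Col16a1), chr17:14694213-14694512 (minus, Thbs2), chr9:20815018-20815317 (minus, Col5a3), chr8:11312777-11313076 (minus, Col4a1) and chr8:11312555-11312854 (plus, Col4a2).
Col16a1: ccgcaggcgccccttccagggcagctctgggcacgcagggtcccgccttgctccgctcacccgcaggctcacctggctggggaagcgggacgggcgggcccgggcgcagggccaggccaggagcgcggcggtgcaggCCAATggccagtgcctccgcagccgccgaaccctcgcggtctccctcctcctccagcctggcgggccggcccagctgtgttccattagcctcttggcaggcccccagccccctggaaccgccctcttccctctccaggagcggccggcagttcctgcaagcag
Thbs2: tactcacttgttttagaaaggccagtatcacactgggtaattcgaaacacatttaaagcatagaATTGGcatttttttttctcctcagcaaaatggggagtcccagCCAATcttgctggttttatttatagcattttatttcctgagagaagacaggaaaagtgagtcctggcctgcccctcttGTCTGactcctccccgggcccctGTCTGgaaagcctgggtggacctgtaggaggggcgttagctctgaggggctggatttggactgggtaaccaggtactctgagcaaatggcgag
Col5a3: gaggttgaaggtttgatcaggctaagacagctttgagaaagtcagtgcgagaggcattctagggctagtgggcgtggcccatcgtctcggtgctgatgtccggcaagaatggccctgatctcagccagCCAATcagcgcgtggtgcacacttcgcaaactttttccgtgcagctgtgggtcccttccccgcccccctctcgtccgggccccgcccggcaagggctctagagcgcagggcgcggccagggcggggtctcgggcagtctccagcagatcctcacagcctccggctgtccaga
Col4a1: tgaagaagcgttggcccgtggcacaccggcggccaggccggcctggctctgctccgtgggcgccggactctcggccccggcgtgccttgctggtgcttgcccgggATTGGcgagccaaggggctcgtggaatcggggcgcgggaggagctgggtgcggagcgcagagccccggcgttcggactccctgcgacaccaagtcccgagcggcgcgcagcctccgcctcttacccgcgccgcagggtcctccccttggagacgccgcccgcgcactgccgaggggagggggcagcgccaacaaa
Col4a2: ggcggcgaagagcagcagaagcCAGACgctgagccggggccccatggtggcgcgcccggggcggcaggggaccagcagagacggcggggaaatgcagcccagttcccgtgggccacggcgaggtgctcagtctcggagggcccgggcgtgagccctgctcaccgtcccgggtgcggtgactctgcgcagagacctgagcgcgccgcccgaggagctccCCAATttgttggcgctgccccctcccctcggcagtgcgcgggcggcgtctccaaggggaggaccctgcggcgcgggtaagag

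The Thbs2 window held 2 matches to CAGAC, at 66 and 43 bases before the start site counted to the first letter of the match, and 2 matches to CCAAT. The windows of Col16a1, Col5a3 and Col4a1 each held 1 CCAAT and no CAGAC, and that of Col4a2 held 1 of each. The start sites of Col4a1 and Col4a2 lie 21 bases apart, and their windows share 78 bases. CAGAC was present in 19 of the 33 windows of these genes (some genes have several), against 49.6% of all 32851 promoter windows listed. CCAAT was present in 10 of the 33, against 37.4% of all. The letters GGAATG (bound by TEAD proteins), TGACTCA (AP-1) and TATAAA (the TATA box, read on the gene's strand only) were in 4, 1 and 5 of the 33, against 14.7%, 5.20% and 8.32% of all windows, and in none of the 5 shown. These are matches of letters within the windows.

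The first comparison asks what the diet did to the matrix genes. In fat of HFD mice, Lum, Thbs2, Col16a1 and Col1a1 were higher than in chow mice, by between 0.76 and 1.31 on the log2 scale, and Col5a3 was lower by 0.87. These 5 of 38 genes (13.2%) passed the test in limma, against 8.1% of all genes tested. The 4 called higher and the 1 called lower stand against the 5.15% and 2.95% given above. Lum encodes lumican, a small proteoglycan that binds collagen fibrils and sets their spacing. Thbs2 encodes thrombospondin-2, a matricellular protein that restrains vessel growth and affects fibril assembly. Col16a1 encodes a collagen that sits on fibrils and links them to other matrix, and Col1a1 a chain of type I collagen, the main fibrillar collagen. Col5a3 encodes a minor chain of type V collagen, which nucleates fibrils.

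Lum had signals of 5500 and 4807 in HFD fat, against 2636 and 1876 in chow fat. The difference was 1.21 (95% CI 0.79 to 1.63, adjusted p = 0.00679, limma), a fold of 2.31. Both HFD mice lay well above both chow mice, by more than the distance between mice of either group. Col16a1 had 363 and 425 in HFD, against 190 and 219 in chow, a difference of 0.95 (0.59 to 1.30, adjusted p = 0.00994). Thbs2 had 537 and 722 in HFD, against 196 and 322 in chow, a difference of 1.31 (0.70 to 1.92, adjusted p = 0.0229). The groups did not overlap for either gene, although the 2 mice of each group differed clearly in Thbs2.

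Col1a1 had signals of 2492 and 2095 in HFD, against 1587 and 1148 in chow, with a difference of 0.76 (0.32 to 1.20, adjusted p = 0.0491, limma), just inside the threshold. Col5a3 had 1683 and 1675 in HFD, nearly equal, against 3627 and 2603 in chow, and its difference was -0.87 (-1.29 to -0.46, adjusted p = 0.0255). It was the only fibrillar collagen called lower, and the chow mice differed from each other by more than the HFD mice did. Lox, which encodes the lysyl oxidase that starts the crosslinking of collagen and elastin, had 1716 and 1439 in HFD, against 773 and 740 in chow. Its difference of 1.05 (0.43 to 1.67) missed the threshold narrowly (adjusted p = 0.0503, limma). Tgfb1, the cytokine that drives matrix synthesis in fibroblasts, had 959 and 1033 in HFD, against 643 and 507 in chow, with a difference of 0.80 (adjusted p = 0.0525). Neither gene overlapped between the groups, but neither was called.

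**Figure D1:**
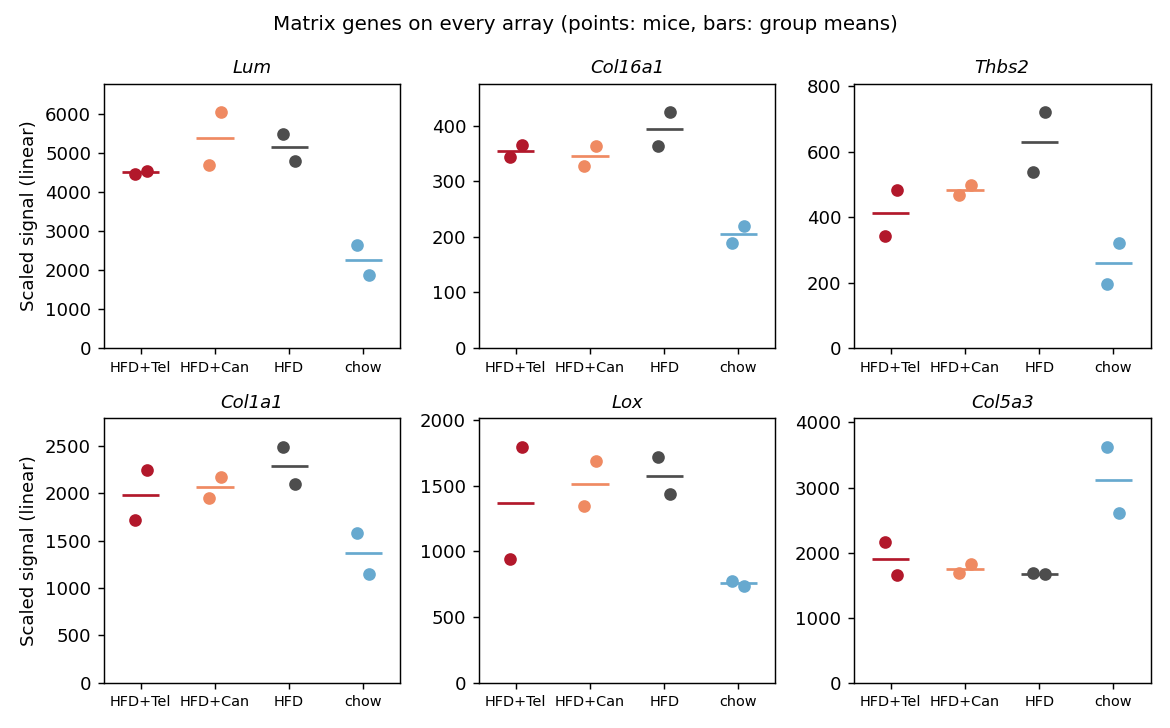
Scaled linear array signal (vertical axes, starting at 0) of Lum, Col16a1, Thbs2, Col1a1, Lox and Col5a3 on each array, by group. Points are single mice and bars are means of the 2 mice. The 6 arrays of mice on the high-fat diet lie above both chow arrays for the first 5 genes and below both for Col5a3.

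Among the 6 fibrillar collagens, which form the load-bearing fibrils, 1 was called higher (Col1a1) and 1 lower (Col5a3). The differences of the other members were 0.36 for Col5a2, 0.28 for Col1a2, 0.17 for Col3a1 and -0.29 for Col5a1, none of them called. None of the 5 basement membrane collagens was called, and their median difference was -0.18. Col4a1 and Col4a2, the main chains of the type IV network, differed by -0.18 and 0.02, with chow mice at signals of 12105 and 9619 for Col4a1. Col4a5, a minor type IV chain, had 274 and 228 in HFD, against 363 and 389 in chow, a difference of -0.59 (adjusted p = 0.0774). Col15a1 and Col18a1, whose products carry sugar chains and sit at basement membranes, differed by -0.18 and 0.09.

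None of the 4 beaded filament and network collagens was called. Col6a1, Col6a2 and Col6a3, chains of the type VI microfibrils abundant around fat cells, differed by 0.07, -0.04 and 0.40. Col8a1, a short network collagen, had 367 and 351 in HFD, against 206 and 218 in chow, a difference of 0.76 (adjusted p = 0.188). Among the 3 fibril-associated collagens Col16a1 was called, while Col12a1 and Col14a1, which decorate type I fibrils, differed by 0.37 and -0.24. Serpinh1, which encodes the collagen chaperone HSP47, and P4ha1, which encodes a subunit of the prolyl hydroxylase that stabilises the helix, differed by -0.25 and 0.33, and neither was called. The second crosslinker, Loxl1, a lysyl oxidase-like enzyme needed for elastic fibres, differed by -0.37 (adjusted p = 0.143), opposite in sign to Lox.

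Of the 7 matricellular and adhesive glycoproteins, Thbs2 was called. Tnc (tenascin-C, induced at wounds), Postn (periostin), Sparc (a collagen-binding glycoprotein made in fat), Tgfbi and Fn1 (fibronectin) differed by 0.75, 0.40, 0.10, -0.04 and -0.12, and none was called. Thbs1, which encodes thrombospondin-1, an activator of latent TGF-beta, had 479 and 701 in HFD, against 117 and 675 in chow. Its estimate of 1.04 had an interval from -0.42 to 2.51, and the chow mice differed from each other several times over. Among the 4 proteoglycans Lum was called, and Bgn (biglycan), Dcn (decorin) and Vcan (versican, a large hyaluronan-binding proteoglycan) differed by 0.32, 0.21 and -0.45, without a call. Eln (elastin), Fbln1 and Fbln2 (fibulins of elastic fibres and basement membranes) differed by -0.51, 0.29 and 0.29, with no call. Acta2, the smooth muscle actin used to mark myofibroblasts, had 3147 and 3245 in HFD, against 4936 and 4291 in chow, a difference of -0.53 (adjusted p = 0.215).

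**Figure D2:**
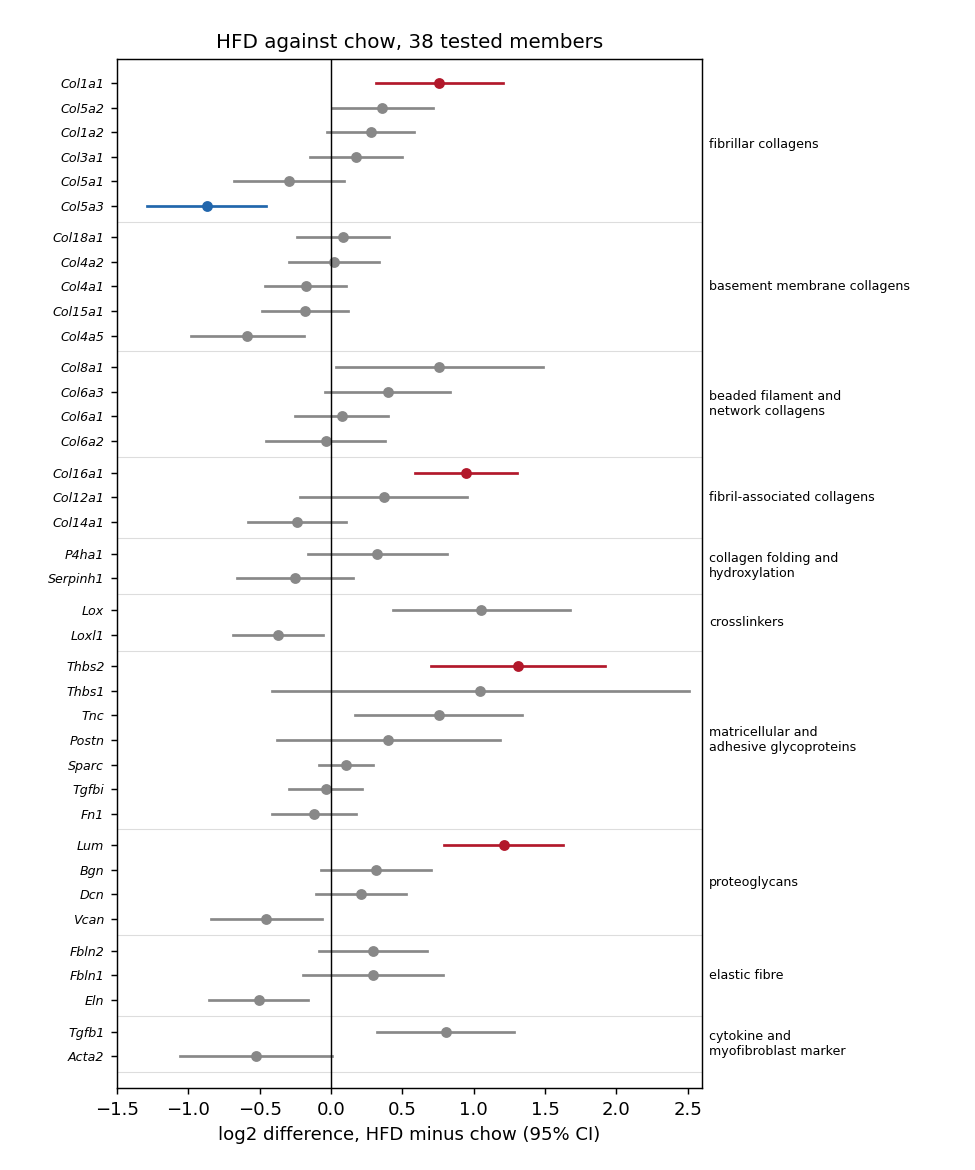
Log2 difference between HFD and chow (horizontal axis) for each of the 38 tested genes, ordered by role, with 95% confidence intervals from limma. Red marks the 4 genes called higher in HFD, blue the 1 called lower, and grey those not called. Within every role the estimates lie on both sides of 0.

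Over the 38 genes, 24 estimates lay above 0 and 14 below, and the median difference was 0.19, against -0.01 over all genes tested. The arrays of the 2 groups did not overlap for 28 of them, 17 higher and 11 lower in HFD (73.7%, against 58.1% of all genes tested). When arrays were centred on their medians, the members called were Lum, Thbs2, Col16a1 and Lox, 4 higher and 0 lower, against 4 and 1 above. The count of calls was 0 without either HFD array, 2 (Lum and Col16a1) without either HFD+Can array, 8 without either HFD+Tel array, and 4 or 5 without a chow array. The calls of Thbs2 (0.95) and Col5a3 (-0.63) were lost without chow mouse 1, and that of Col1a1 (0.53) without chow mouse 2. An exact permutation test of 2 mice against 2 could not give a p below 0.333. In bulk fat, fewer cells of a type and less RNA per cell cannot be told apart, and other cell types moved with the diet.

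The next comparisons ask what each drug did on top of the diet. None of the 38 genes was called in HFD+Tel against HFD, and none in HFD+Can against HFD, where 0% of all genes tested passed limma in either comparison. At an unadjusted p under 0.05 there were 2 members in HFD+Tel (Fbln1 and Thbs2, both lower) and 0 in HFD+Can, among 696 and 139 genes in all. The median differences were -0.04 for HFD+Tel and -0.02 for HFD+Can, each near that of all genes (-0.01 and 0.00). Both comparisons share the HFD arrays.

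Thbs2 had 342 and 482 in HFD+Tel and 469 and 499 in HFD+Can, against 537 and 722 in HFD. Its differences from HFD were -0.62 (-1.23 to -0.01) for telmisartan and -0.36 (-0.97 to 0.25) for candesartan, and neither was called (adjusted p = 0.766 for telmisartan in limma). On the probe set used, all 4 drug-treated mice lay below both HFD mice and above both chow mice. The gene's other probe sets gave -0.03 and -0.69 for telmisartan against HFD, and 0.03 and 0.13 for candesartan. Fbln1, which encodes fibulin-1, had 402 and 597 in HFD+Tel and 669 and 741 in HFD+Can, against 615 and 821 in HFD. It differed by -0.54 (-1.03 to -0.05) with telmisartan and by -0.01 (-0.50 to 0.48) with candesartan, and only the telmisartan mice both lay below both HFD mice. Col8a1 had 163 and 293 in HFD+Tel and 205 and 365 in HFD+Can, against 367 and 351 in HFD, where the 2 HFD mice were close and the mice of each drug group were not. Its differences were -0.72 (-1.44 to 0.01) and -0.39 (-1.12 to 0.33).

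With candesartan, the smallest p values of the list belonged to Vcan, Col4a5 and Thbs2. Vcan had 305 and 389 in HFD+Can, against 273 and 291 in HFD, a difference of 0.29 (-0.10 to 0.68) that was not called. The other Vcan probe sets above the minimum signal gave -0.34 and -0.01. Col4a5 had 268 and 345 in HFD+Can, against 274 and 228 in HFD, a difference of 0.28 (-0.11 to 0.68), and the groups overlapped. The other 4 genes called for the diet had intervals that spanned 0 under both drugs. Lum, Col16a1, Col1a1 and Col5a3 differed from HFD by -0.19, -0.15, -0.22 and 0.17 with telmisartan and by 0.05, -0.19, -0.15 and 0.06 with candesartan. Lox had 941 and 1798 in HFD+Tel and 1343 and 1691 in HFD+Can, against 1716 and 1439 in HFD, so the telmisartan mice spanned the range of the other groups on the diet. Acta2 had 5450 and 3135 in HFD+Tel, against 3147 and 3245 in HFD, with an estimate of 0.37 and the second mouse close to the HFD mice.

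By role, the estimates for telmisartan ran from -0.22 to 0.17 over the fibrillar collagens, and from -0.19 to 0.06 over the basement membrane collagens. Over the matricellular genes they ran from -0.79 (Thbs1) to 0.14 (Sparc). All 4 proteoglycans had estimates below 0 (-0.28 to -0.09), without a call. After median centring, which raised every estimate for telmisartan by the same amount, 1 of the 4 lay below 0. For candesartan the ranges were -0.15 to 0.06, -0.08 to 0.28, -0.66 (Thbs1) to 0.05 and -0.10 to 0.29 over the same roles. The intervals show what these arrays could resolve. The interval lay within 1 log2 unit of 0 for 34 of 38 genes with telmisartan and 36 with candesartan, and within 0.5 for 16 and 22. Arrays did not overlap between HFD+Tel and HFD for 13 genes, 2 higher and 11 lower (34.2%, against 37.9% of all genes tested), and between HFD+Can and HFD for 7 (18.4%, against 33.4%).

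**Figure D3:**
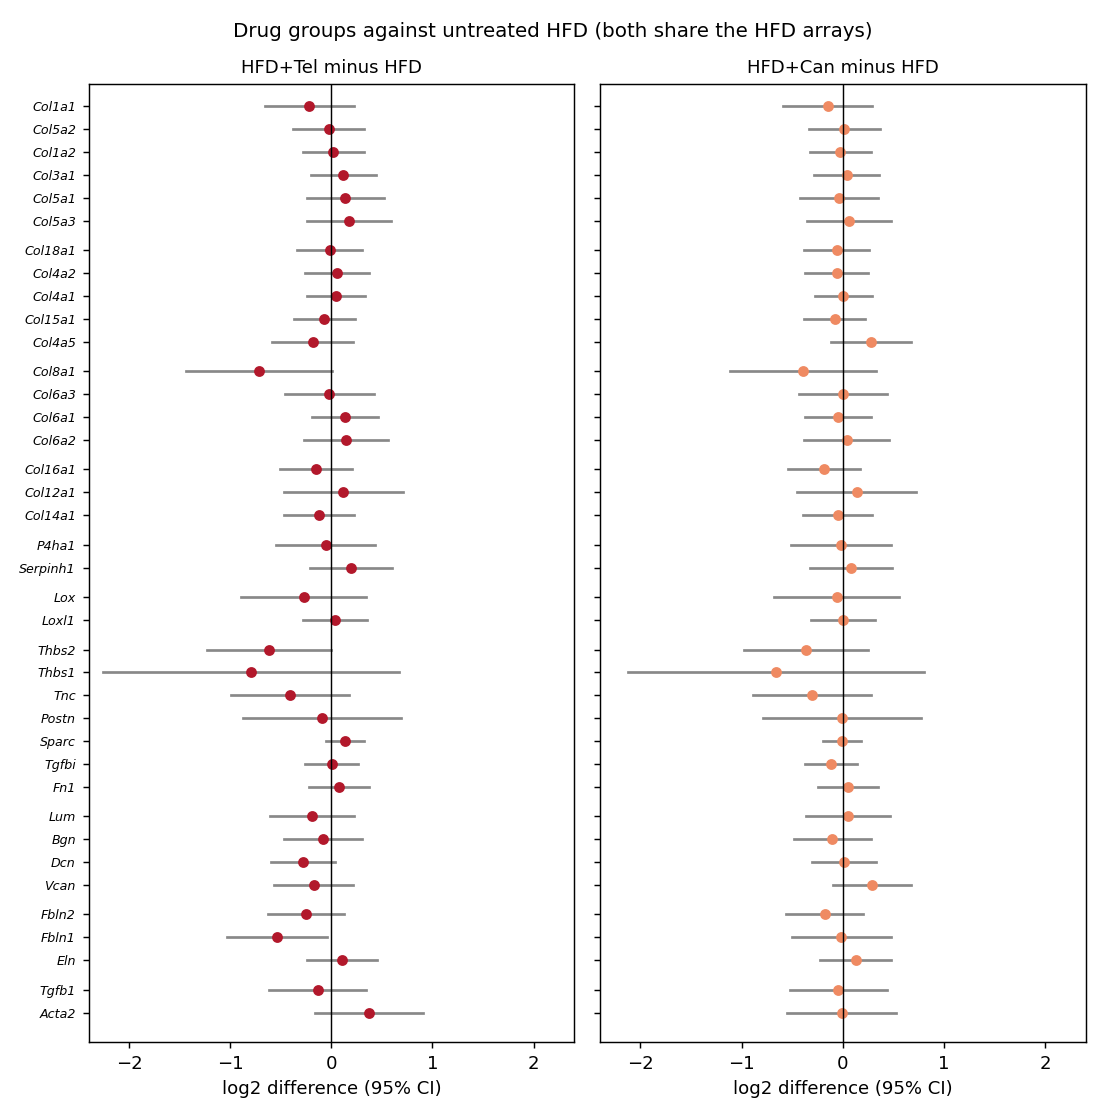
Log2 difference from HFD (horizontal axes) of the 38 genes in HFD+Tel (left) and HFD+Can (right), with 95% confidence intervals from limma, in the order of the diet plot. Intervals of 2 genes in HFD+Tel (Fbln1 and Thbs2) and of 0 genes in HFD+Can lie clear of 0 before adjustment.

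The drugs were also set against each other, at the same dose and time, over the 38 genes as 1 pair of compounds. None was called in HFD+Tel against HFD+Can (0% of all genes tested in limma), and 3 had an unadjusted p under 0.05, among 549 genes in all. Vcan had 258 and 242 in HFD+Tel, against 305 and 389 in HFD+Can, a difference of -0.46 (-0.85 to -0.07). Col4a5 had 217 and 223 in HFD+Tel, against 268 and 345 in HFD+Can, a difference of -0.47 (-0.86 to -0.07). Fbln1 differed by -0.52 (-1.01 to -0.03). For all 3 genes both telmisartan mice lay below both candesartan mice, and each adjusted p was 0.924. The arrays did not overlap for 26.3% of the 38 genes, against 32.2% of all genes tested. The interval of the difference lay within 1 log2 unit of 0 for 35 genes and within 0.5 for 17. For the other genes the interval also covers differences larger than these bounds, and the absence of a call does not show that the drugs act alike.

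The last comparisons set the drug-treated mice against chow, where 8.45% of all genes tested were called in HFD+Tel and 6.58% in HFD+Can. In each, 3 of the 38 genes were called (7.89%), and both comparisons share the chow arrays with the diet comparison. Lum had 4472 and 4531 in HFD+Tel and 4695 and 6053 in HFD+Can, against 2636 and 1876 in chow. Its differences were 1.02 (adjusted p = 0.0130) and 1.26 (adjusted p = 0.00597). Col16a1 had 343 and 364 in HFD+Tel and 328 and 363 in HFD+Can, against 190 and 219 in chow, with differences of 0.79 (adjusted p = 0.0185) and 0.76 (adjusted p = 0.0255). Both genes were called in each of the 3 comparisons with chow. In HFD+Can the call of Col16a1 was lost without chow mouse 1, either HFD array or either HFD+Can array (adjusted p = 0.0562 to 0.231), and that of Lum without HFD+Can mouse 2 (0.0835). In HFD+Tel the call of Col16a1 was lost without chow mouse 1 (0.0672) or HFD+Tel mouse 2 (0.0552), that of Lum without chow mouse 2 (0.0506), and both with only those 2 groups fitted. With no filter on dim probe sets neither gene was called in any of the 3 comparisons.

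The remaining calls were both lower than in chow. Col4a5, with 217 and 223 in HFD+Tel, against 363 and 389 in chow, differed by -0.77 (-1.17 to -0.38, adjusted p = 0.0308, limma), while in HFD+Can, with 268 and 345, it differed by -0.30 and was not called. Col5a3 had 2157 and 1660 in HFD+Tel and 1689 and 1822 in HFD+Can, against 3627 and 2603 in chow. It was called in HFD+Can (-0.81, adjusted p = 0.0359) and missed the threshold in HFD+Tel (-0.70, adjusted p = 0.0514). Col1a1 had 1719 and 2249 in HFD+Tel and 1956 and 2170 in HFD+Can, against 1587 and 1148 in chow, with differences of 0.54 and 0.61 and no call. Thbs2 differed from chow by 0.69 in HFD+Tel and 0.95 in HFD+Can, also without a call. After median centring the calls were Lum, Col16a1, Lox and Tgfb1 in HFD+Tel and Lum, Col16a1, Lox and Thbs2 in HFD+Can, 4 higher and 0 lower in each, against 2 and 1 above. Without HFD+Tel mouse 2 the count for HFD+Tel was 1 (Lum), and it was 7 without mouse 1. There the call of Lum was lost without chow mouse 2 (adjusted p = 0.0506), that of Col16a1 without chow mouse 1 (0.0672) or HFD+Tel mouse 2 (0.0552), and that of Col4a5 without HFD+Tel mouse 2 or any chow or HFD array (0.0586 to 0.118). For HFD+Can it was 7 without either HFD+Tel array, 5 without chow mouse 2, 2 without chow mouse 1, 1 without either HFD array or HFD+Can mouse 1, and 0 without HFD+Can mouse 2, where Lum had an adjusted p of 0.0835.

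The array measures many of these genes with several probe sets, which read different stretches of a transcript. Of the 38 genes, 26 had several probe sets above the minimum signal, and the median spread between the highest and lowest estimate of a gene for HFD against chow was 0.19. It was largest for Thbs2 (1.15), whose other probe sets gave 0.16 and 0.27, against 1.31 for the one used. For Col1a1 the second probe set gave 0.19, against 0.76. The increase of Thbs2 and that of Col1a1 thus rested on 1 probe set each. The calls of Lum, Col16a1 and Col5a3 had no second probe set to set beside them. Lum and Col16a1 have 1 probe set each, and Col5a3 had 1 above the minimum signal. For Lox the probe sets gave 1.05 and 1.15, and the second was called when each probe set was tested on its own (adjusted p = 0.0430, limma). Probe sets differed in sign for Col18a1, Col4a1, Col5a1, Col6a2, Serpinh1 and Vcan, and none of these genes was called. For Eln, the second probe set was called lower in HFD+Tel than in chow (-1.18, adjusted p = 0.0422), against -0.40 for the one used.

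**Figure D4:**
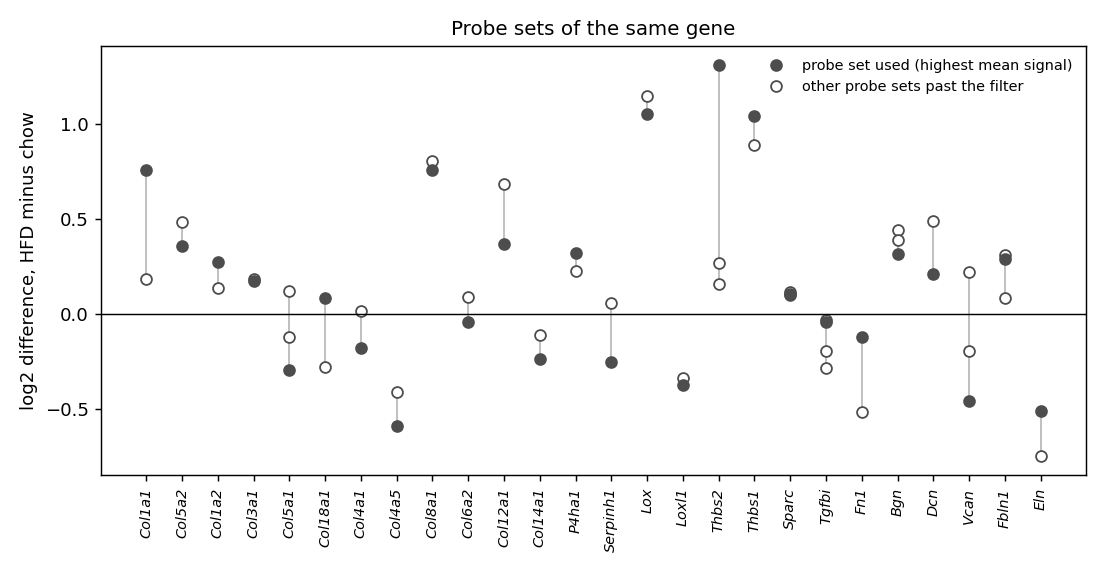
Log2 difference between HFD and chow (vertical axis) for each probe set of the 26 genes with several above the minimum signal. Filled points are the probe sets used and open points the others; Thbs2 and Col1a1 show one high point above the rest, and those of Lox, Col8a1 and Sparc lie close together.

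Further genes of the pathway were read from other lists. Of 20 genes of TGF-beta signalling 18 were tested, and 2 were called higher in HFD than in chow: Tgfbr1, a receptor (0.93, adjusted p = 0.0344), and Ltbp2, a microfibril protein of the family that binds latent TGF-beta (0.71, adjusted p = 0.0247). That is 11.1% of the list, near the 8.1% of all genes tested, and 1 of the 18 was called after median centring. Of 24 genes of collagen biosynthesis 19 were tested and none was called, with a median of 0.12. Of 14 laminins and other basement membrane genes 11 were tested, with 1 called higher (Lamb3, 1.38) and 2 lower (Lama4, -0.78, and Agrn, -0.73), around a median of -0.27. All 11 had arrays that did not overlap between the groups, 2 higher and 9 lower, where 58.1% of all genes tested did not overlap. Of 18 further small proteoglycans and fibre proteins 15 were tested and none was called, with a median of -0.09.

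Collagen receptors and uptake proteins gave the largest diet differences of these lists. Of 11 genes 7 were tested, and 2 were called higher and 1 lower (42.9%, against 8.1% of all genes tested). The list is short and was chosen with earlier results of these data known, so the shares are descriptions only. Mrc1 is on this list and among the macrophage markers. Mrc2 encodes an endocytic receptor that takes up cleaved collagen, and was higher by 1.98 (1.64 to 2.32, adjusted p = 0.000537). Its scaled signals were 565 and 611 in HFD+Tel, 676 and 617 in HFD+Can and 620 and 689 in HFD, against 153 and 180 in chow. The 6 mice on the high-fat diet were close to each other and far above both chow mice. Lair1, an inhibitory collagen receptor of leukocytes, was higher by 1.87 (adjusted p = 0.0330), and Ddr1, a collagen-binding receptor kinase, was lower by 1.04 (difference -1.04, adjusted p = 0.0126). In HFD+Tel and HFD+Can, Mrc2 differed from chow by 1.82 and 1.96, Lair1 by 1.69 and 1.92, and Ddr1 by -0.84 and -1.07, all called.

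No gene of these 5 lists was called in either drug group against HFD. With telmisartan, all 15 tested small proteoglycans and fibre proteins had estimates below 0 (median -0.32), and 15 of 18 TGF-beta genes did (median -0.23), where 51.5% of all genes tested lay below 0. Median centring raised every estimate of this comparison by the same amount, and the median of all genes went from -0.01 to 0.26. The counts below 0 were then 8 of 15 (median -0.05) and 8 of 18 (median 0.04). The sign of these estimates thus depended on the scaling. Both medians lay below that of all genes, a gap that a shift common to every gene cannot change. Ltbp4 is on both lists. With candesartan the medians were -0.04 and -0.06. Against chow, Tgfb3 (-1.17), Ltbp4 (-0.91), Efemp1 (-0.86), Lamb2 (-1.14) and Lama4 (-0.72) were called lower in HFD+Tel, and Lamb3 (1.16) and Pcolce2, an enhancer of collagen maturation (1.42), were called higher. In HFD+Can, Ltbp4 (-0.60), Lamb2 (-0.75) and Lama4 (-0.65) were called lower than in chow, and Tgfbr1 (0.94) and Skil (0.67) higher.

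Markers of the cells that could carry these transcripts differed between groups as well. The 10 macrophage markers had a summed signal of 36058 and 49420 in HFD+Tel, 38919 and 44381 in HFD+Can and 41422 and 42481 in HFD, against 18592 and 21451 in chow. Of 9 tested adipose progenitor and fibroblast markers, Fap was called higher in HFD than in chow (0.70), 0 were called lower, and the median was -0.04. The 7 endothelial markers summed to 3331 and 3745 in HFD+Tel, 3174 and 3442 in HFD+Can and 3779 and 3580 in HFD, against 6305 and 5162 in chow. Of 8 smooth muscle and pericyte markers none was called in HFD against chow, with a median of -0.57, near the -0.53 of Acta2. Of 8 adipocyte markers, Slc2a4 and Pparg were called lower in HFD than in chow. The part of these cells in the diet differences of the matrix genes was not tested.

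In HFD+Tel, 8 of 9 progenitor and fibroblast markers had estimates below 0 against HFD (median -0.32), none of them called. After median centring, which moved the median of all genes to 0.26, 5 of 9 did. Dpt and Mfap5 are also on the list of small proteoglycans and fibre proteins, so the counts of these lists share genes. The summed signals of the 9 progenitor and fibroblast markers were 11148 and 11051, against 12593 and 15145 in HFD. These linear sums lean on bright genes: the brightest probe set of the list had a mean signal of 6442 over all arrays. The 7 mesothelial markers, from the cells that line the pad, summed to 731 and 2467 in HFD+Tel, 1750 and 3205 in HFD+Can and 2425 and 3259 in HFD, against 3590 and 2675 in chow. The first HFD+Tel mouse had the lowest value on all 8 arrays. Without that array the estimates against HFD were -0.37 for Thbs2, -0.25 for Fbln1 and -0.29 for Col8a1, against -0.62, -0.54 and -0.72 with it. In that fit HFD+Tel is 1 mouse, assumed to vary like the mice of the other groups. The 5 tested proliferation markers summed to 2322 in one chow mouse and 384 in the other, with the other 6 mice between 1226 and 1750. The part of these markers in the estimates for telmisartan was not tested.

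**Figure D5:**
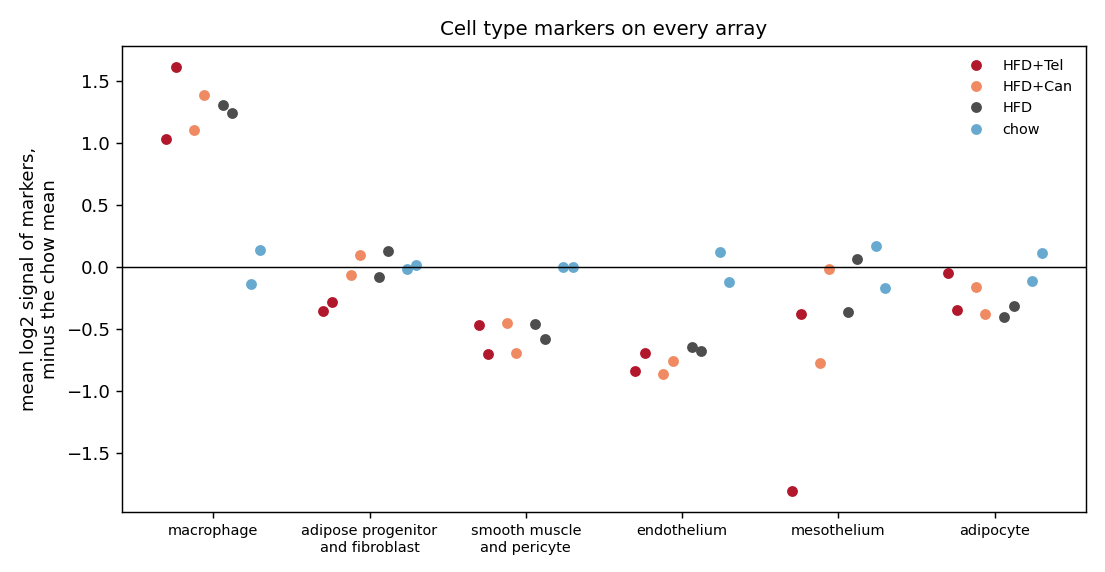
Mean log2 signal of the markers of 6 cell types on each array, minus the mean of both chow arrays (vertical axis), with each point a mouse. Macrophage markers lie 1.03 to 1.61 above chow in all 6 mice on the high-fat diet, endothelial markers 0.64 to 0.87 below, and mesothelial markers are lowest in one HFD+Tel mouse.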

How the data were processed

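Per the series design text, the authors made the deposited values, a linear signal intensity per probe set of a 1-colour array with 45101 probe sets, with the array maker's analysis software. The software version and the scaling it applied were not stated in those sources. A common 2%-trimmed mean was set for all arrays (these differed by up to 1.48 times). Values were floored at 6.69 (the 20th percentile) and put on the log2 scale. Probe sets with a mean at or above the 50th percentile (a signal of 40.6) and 1 gene symbol were kept, 1 per gene by the highest mean. In the probe annotation 34958 probe sets had 1 symbol, 932 had several and 9160 were not listed. limma 3.58.1 (R 4.3.3, figures with Python 3.11.15) was fitted to all 8 arrays with 4 group means, 4 residual degrees of freedom and an intensity trend. p-values were two-sided and Benjamini-Hochberg adjusted over 11224 genes, with 95% intervals. The code was tested on simulated data. The 2 arrays per group limit the precision. Mice sharing a replicate number are paired by no source, and their deviations correlated between groups at -0.04 to 0.21. The 38 genes and the lists were chosen with earlier results of these data known. Genes with values on every array were those called and the 3 with the smallest p per comparison; Lox, Tgfb1, Thbs1, Acta2, Col4a1 and Mrc2 were added after their values were seen. Alternatives were other scalings, floors, filters, probe set rules and variance models, and fits leaving out each array.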

Additional observations from a re-analysis of the deposited data

How the results depend on the processing

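The count of genes called was 0 in HFD+Tel against HFD, in HFD+Can against HFD and in HFD+Tel against HFD+Can under each of the 12 alternative settings and without each of the 8 arrays. For HFD against chow (5 called) the count was 0 with no filter on dim probe sets, 3 with variances without the trend and 8 with only those 2 groups fitted, and 0 to 8 when each array was left out. For HFD+Tel against chow (3 called) it was 0 with no filter, 0 with only those 2 groups, 5 with the replicate block and 1 to 7 without each array. For HFD+Can against chow (3 called) it was 0 with no filter, 5 with only those 2 groups, 5 with the replicate block and 0 to 7 without each array. The replicate block, for which no source gives a pairing, gave 7 in HFD against chow. The unfiltered fit holds more genes and the fits without an array fewer samples. The cause of these changes was not tested. No estimate changed sign among the genes called. Over all genes, the 909 calls of HFD against chow became 174 with no filter, 574 with median centring and 166 to 1611 without each array. Median centring moved the median of all genes to -0.11 (HFD against chow), 0.26 (HFD+Tel against HFD) and 0.16 (HFD+Can against HFD), where the medians of the 38 genes were 0.09, 0.23 and 0.14. The call of Lum was lost with no filter and without either HFD array, that of Thbs2 also when a gene's probe sets were averaged (0.58), that of Col5a3 in 8 of 19 alternatives and that of Col1a1 in 10 of 19 alternatives. With each probe set tested on its own, an alternative chosen after seeing the data, Lox replaced Col1a1 among the 5 genes called.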

Other observations

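Pdgfra, 1 of the progenitor and fibroblast markers counted above, was chosen after its values were seen. The receptor it encodes marks adipose progenitors and fibroblasts. It had scaled signals of 481 and 561 in HFD+Tel and 855 and 1093 in HFD+Can, against 938 and 1077 in HFD (chow mice had 649 and 868). Both HFD+Tel mice lay below the other 6 mice, with an estimate of -0.95 against HFD (-1.39 to -0.52, adjusted p = 0.766, limma). That was the lowest estimate among the 9 tested markers of its list. Median centring raised it by the same amount as the other estimates of that comparison.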
